A study of Mus musculus with 6 samples.

Results

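The genes of the cellular oxygen sensing machinery followed here in whole mouse kidney were the alpha subunits of hypoxia-inducible factor (HIF) Hif1a, Epas1 and Hif3a, their partner subunit Arnt, the prolyl hydroxylases Egln1, Egln2 and Egln3, the asparagine hydroxylase Hif1an, the ubiquitin ligase receptor Vhl and the HIF antagonist Cited2. They were chosen by name, and they are 10 of the 24422 genes counted. Polyadenylated RNA was sequenced from 3 control and 3 TfR1KO;KspCre kidneys of C57BL/6 mice at postnatal day 60, and all 6 mice received an iron-sufficient diet with 220 ppm iron. In the study's wording control kidneys were wild type, a term it also applies to littermates with a floxed transferrin receptor gene. In the second group the gene for transferrin receptor 1 (Tfrc, the receptor that brings transferrin-bound iron into cells) carries floxed exons, and Cre is driven by the promoter of Ksp-cadherin (Cdh16), which is active in epithelium of the distal nephron and collecting duct. Proximal tubule, vessels, stroma and blood cells lie largely outside the activity of this promoter, and each library holds RNA of all of them. Below, "knockout" means a library with the label TfR1KO;KspCre, and numbers 1 to 3 are those of the sample titles. The comparison asks how the RNA of the oxygen sensing genes differed between kidneys with and without this deletion of an iron receptor.

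In well oxygenated cells, the prolyl hydroxylases use oxygen, 2-oxoglutarate and an iron atom to hydroxylate the HIF alpha subunits. Vhl then recognizes the hydroxylated subunit and marks it for degradation. Hif1an, also an iron-dependent enzyme, hydroxylates an asparagine of the alpha subunit and blocks its contact with the coactivators p300 and CBP, and Cited2 competes for the same contact. When oxygen or iron is short, the alpha subunit accumulates, pairs with Arnt and activates genes that hold the core sequence ACGTG or GCGTG, among them Egln3, Egln1 and Cited2 themselves. These steps act on protein, and RNA counts measure neither protein nor enzyme activity.

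No oxygen sensing gene was called between genotypes. All 10 were abundant enough to be tested, and with edgeR's quasi-likelihood test none had an adjusted p under 0.05, beside 17.2% of the 15171 genes tested (10.6% higher and 6.64% lower in knockouts). The smallest adjusted p-values were those of Cited2 (0.0619) and Egln1 (0.0794), both lower in knockouts, at 0.691 and 0.708 of the control level. These were also the 2 members with an unadjusted p under 0.05, a condition that 38.6% of all tested genes met. By limma-voom 0 members were called (13.4% of all genes), and by the DESeq2 Wald test 2 were, Egln1 and Cited2, where 32.2% of all genes were called. The log2 fold change (knockout over control) was positive in 6 members and negative in 4, with a median of 0.07 beside 0.02 over all tested genes.

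In 3 members the knockout and control libraries did not overlap, with Vhl above the controls in every knockout and Egln1 and Cited2 below. Levels are given as CPM, counts scaled to 1e+06 per library with TMM normalization. Among all tested genes, 46% did not overlap, 23.8% with the knockouts above and 22.2% with the knockouts below. In the plot of levels by library, these 3 genes and the within-group scatter of the others can be read directly.

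**Figure D1:**
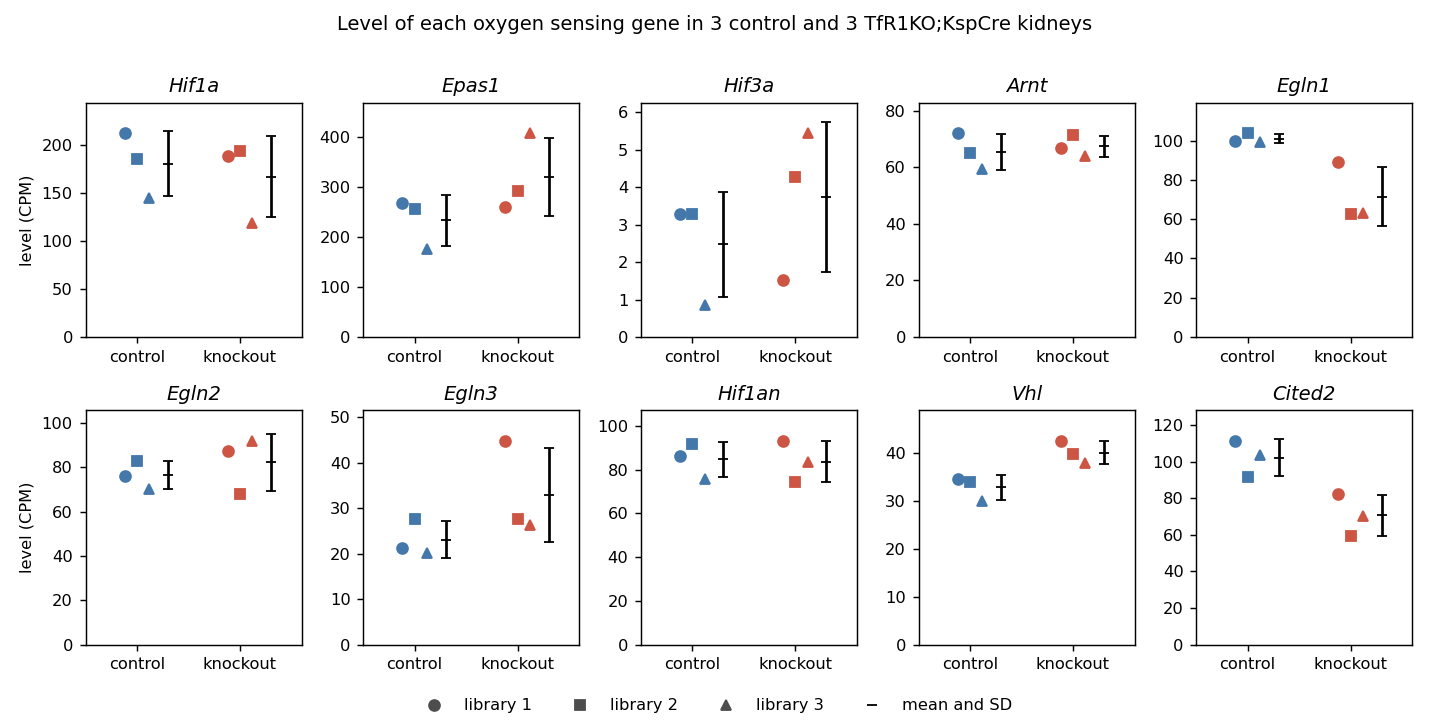
Level (CPM, linear axis from 0) of each oxygen sensing gene in each library, with controls in blue, knockouts in red, the symbol giving the library number and the black bar the mean and SD of 3 libraries. Egln1 and Cited2 lie lower in every knockout than in every control and Vhl lies higher, while the other 7 genes overlap between groups.

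Several features of the libraries bear on these values. Total counts ran from 11501053 to 21001341, and the shallowest library was knockout 3, which also held the largest share of the 45S ribosomal RNA gene Rn45s, 2.59% beside 0.506% to 0.745% elsewhere. The first principal component held 69.4% of the variance and placed the controls between -72.6 and -53.2, knockout 1 at 9.67 and knockouts 2 and 3 at 88.6 and 82.1. Control 2 had 52 counts of Xist and 3980 counts of Y-linked genes, whereas the other 5 libraries had at least 10458 and at most 5, so sex was not balanced between the groups. Tfrc was not called, at 61.95 to 167.9 CPM in controls and 214.4, 86.0 and 40.6 CPM in knockouts 1 to 3 (log2 fold change -0.11 ± 0.62 SE, 95% interval -1.57 to 1.35, adjusted p = 0.911). Knockout 1, which lies between the groups on the first component, had the highest Tfrc of all 6 libraries. Counts over the whole gene include exons that the recombination leaves in place and cells without Cre, so they do not test the deletion.

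Cell type markers also differed between genotypes. The defining markers of proximal tubule, thick ascending limb, collecting duct, podocyte and endothelium were present in every library. The 6 proximal tubule markers summed to 7889 to 12006 CPM in controls and 1244 to 3748 CPM in knockouts, and 5 of the 6 fell. Fibroblast and pericyte markers summed to 281 to 513 CPM in controls and 796 to 3075 CPM in knockouts (3 of 6 rose), and macrophage markers to 150 to 161 CPM and 323 to 949 CPM (5 of 6 rose). T cell markers summed to 1.54 to 2.82 CPM in controls and 9.28 to 27.4 CPM in knockouts (3 of 4 rose). Endothelial markers (0 of 8 called) spanned 559 to 1100 CPM in controls and 802 to 1189 CPM in knockouts. Thick ascending limb markers, from a segment where the promoter of Cre is active, summed to 3793 to 9432 CPM in controls. In knockouts they summed to 6056, 828 and 1135 CPM (median log2 fold change -1.15). Of these 4 markers Cldn16 went the other way (0.65), and all 4 overlapped between groups. Distal convoluted tubule markers summed to 1180 to 1800 CPM in controls and to 1295, 576 and 92.5 CPM in knockouts. Of these and the remaining lists, 1 of 3 markers of the distal convoluted tubule fell and 1 of 5 of the podocyte rose, whereas none was called among 4 of the thick ascending limb, 4 of the principal cell, 4 of the intercalated cell and 4 of the adipocyte. Of 4 red cell genes, 3 (Hba-a1, Hba-a2 and Hbb-b1) were listed at 0 in all libraries and the other was not called. In whole tissue, fewer cells of a type and less RNA per cell cannot be told apart, and the part of cell makeup in any value below was not tested.

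Among the prolyl hydroxylases, the ratio of Egln3 to Egln1 RNA was higher in every knockout than in every control. Egln1 encodes PHD2, the main oxygen sensor of most cells, and lies at chr8:127432496-127473154 on the minus strand of mm9, with 5 exons. Egln3 encodes PHD3, the form most strongly induced by hypoxia, and lies at chr12:55279968-55304847, also on the minus strand. Because both are known HIF targets, stretches of their promoters that hold the core sequence are shown, and that of Cited2 with them, with the core in capitals. They are 50-base windows of RefSeq promoters in GRCm38.p6, written 5′ to 3′ on the strand of the gene, and their coordinates are not those of mm9.
Egln1, chr8:124949351-124949400, minus strand, core at -126: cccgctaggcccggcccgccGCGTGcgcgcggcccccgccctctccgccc
Egln1, chr8:124949293-124949342, minus strand, core at -68 from the start: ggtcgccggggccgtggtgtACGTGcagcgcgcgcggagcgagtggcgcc
Egln3, chr12:54204074-54204123, minus strand, core at -229: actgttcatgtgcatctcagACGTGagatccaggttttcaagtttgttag
Cited2, chr10:17723055-17723104, plus strand, core at -153: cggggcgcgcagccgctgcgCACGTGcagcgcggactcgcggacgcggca

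The search covered ACGTG and GCGTG on both strands, from 250 bases before to 50 bases after each start. At least 1 match was present in 7 of the 9 members with a promoter in the RefSeq table, beside 43.8% of 32851 promoters. Egln1 held 2 matches and Egln3 held 1. In Cited2 the ACGTG of both strands overlap in the palindrome CACGTG and count as 2, and the same palindrome occurs in Hif1a and Egln2. With both strands of it counted, Egln2 held 6 matches in 1 of its promoters and Hif1a 3, while Hif3a held 2 and Arnt 1. Vhl and Hif1an held none. Sequences with at least 2 matches made up 20.6% of all promoters, and a match is a description of letters, not of binding.

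Egln1 was the steadiest of the 10 members in controls, at 99.9, 103.7 and 99.4 CPM, a coefficient of variation of 2.34% where counting alone gives 2.36%. In knockouts it stood at 88.9, 62.4 and 63.3 CPM. All 3 knockouts were below all 3 controls, and knockout 1 was the one nearest to them. The log2 fold change was -0.50 ± 0.17 SE (95% interval -0.90 to -0.09), with adjusted p = 0.0794. Without knockout 1 it was -0.69 and was called (adjusted p = 0.00867, where 34.4% of all genes were called). Without control 2 it was -0.49 (adjusted p = 0.191, where 0% of all genes were called).

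Egln3 was measured at 21.3, 27.7 and 20.2 CPM in controls and at 44.8, 27.6 and 26.4 CPM in knockouts. Only knockout 1 stood clear of the controls, while knockouts 2 and 3 were at or just under control 2. The log2 fold change was 0.51 ± 0.25 (95% interval -0.08 to 1.11, adjusted p = 0.173), and it was 0.22 without knockout 1 and 0.66 without control 2, called in neither fit. Egln2 encodes PHD1 and lies at chr7:27943677-27951821 on the minus strand, where Cyp2t4 overlaps it on the other strand, and reads of the overlap cannot be assigned with certainty since the strand setting of the counting is not given in the sources used here. It ranged from 70.1 to 82.8 CPM in controls and from 67.8 to 91.9 CPM in knockouts, with a log2 fold change of 0.11 ± 0.16 (adjusted p = 0.645).

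Within each library, the ratio of Egln3 to Egln1 does not depend on the scaling between libraries. Per kilobase of transcript it was 0.281, 0.352 and 0.268 in controls and 0.665, 0.584 and 0.550 in knockouts. Every knockout ratio was above every control ratio. The mean log2 ratio was -1.74 ± 0.21 (SD, n = 3) in controls and -0.74 ± 0.14 in knockouts, a difference of 1.00 ± 0.15 SE, or a doubling. The exact two-sided permutation test gave p = 0.1 (0.4 adjusted over the 4 ratios examined), the smallest p that 3 against 3 libraries allow, so this comparison cannot pass 0.05. It was the only 1 of the 4 ratios whose groups did not overlap. Egln1 on its own is among the 46% of genes without overlap, and the share of other gene pairs whose ratios lie apart was not examined. The difference stayed between 0.92 and 1.12 when any 1 library was left out, with 1.12 without control 2 and 0.93 without knockout 1. In knockout 1 the ratio was high with Egln3 at 44.8 CPM and Egln1 at 88.9 CPM, while in knockouts 2 and 3 it was high with Egln1 at 62.4 and 63.3 CPM and Egln3 inside the range of the controls.

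As shares of the summed prolyl hydroxylase RNA per kilobase, Egln2 was the largest in every library. That rank depends on the transcript lengths used, 2107 bases for Egln2 and 3515 bases for Egln1. Before division by length, mean control levels were 101.0 CPM for Egln1 and 76.4 CPM for Egln2. Egln1 made up 37.3% to 40.9% in controls and 25.2% to 30.3% in knockouts. Egln3 made up 10.96% to 13.1% in controls and 13.8% to 20.1% in knockouts. Both ranges were apart between genotypes, whereas the share of Egln2, 48.1% to 49.9% in controls and 49.6% to 61.0% in knockouts, overlapped. Shares sum to 100%, so a lower share of 1 member raises those of the others.

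**Figure D2:**
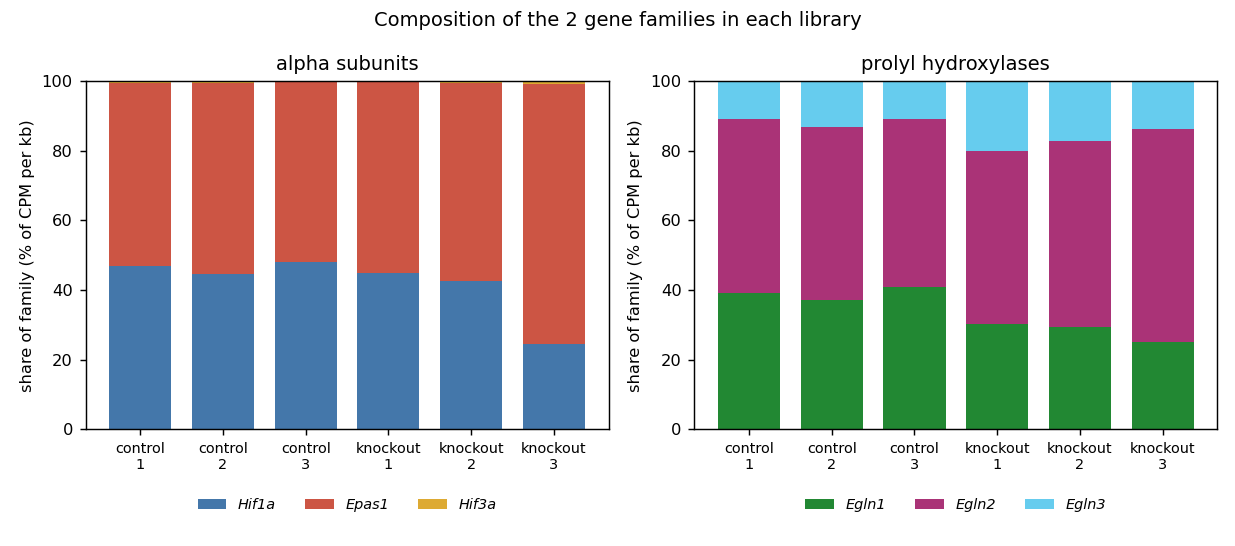
Share of each gene in the summed CPM per kilobase of its family, in percent, for the alpha subunits (left) and the prolyl hydroxylases (right), 1 bar per library. Egln1 makes up 37.3% to 40.9% of its family in controls and 25.2% to 30.3% in knockouts, and among the alpha subunits knockout 3 stands apart with 74.7% Epas1.

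None of the 3 alpha subunits was called. Hif1a (chr12:75002362-75048517, plus strand), the broadly expressed alpha subunit that acts mainly in tubular epithelium of the kidney, was measured at 212.4, 185.9 and 144.7 CPM in controls and at 189.2, 193.6 and 118.6 CPM in knockouts. The groups overlapped throughout, and the log2 fold change of -0.11 ± 0.24 (95% interval -0.69 to 0.46, adjusted p = 0.755) turned positive, 0.08, without knockout 3. It also turned positive, 0.15, with library size alone as the scaling, which moves the median of all genes up by 0.27. The lincRNA Gm15283 overlaps Hif1a on the opposite strand.

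Epas1 (chr17:87153247-87232750, plus strand) encodes HIF-2 alpha, which in kidney is found in endothelial and interstitial cells and drives erythropoietin. Its controls stood at 267.6, 255.8 and 175.3 CPM and its knockouts at 258.6, 290.8 and 406.6 CPM. Knockout 3 was the highest and control 3 the lowest, and the remaining 4 libraries lay close together. Its log2 fold change was 0.45 ± 0.25 (95% interval -0.14 to 1.05, adjusted p = 0.225), 0.24 without knockout 3, 0.28 without control 3 and 0.52 without control 2. Summed endothelial markers were 559 CPM in control 3, their lowest value, and 802 CPM in knockout 3, less than in controls 1 and 2.

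Hif3a (chr7:17616856-17647776, minus strand), whose products include inhibitory forms of the alpha subunit, was rare, with 14 to 85 counts per library. It was measured at 3.28, 3.29 and 0.84 CPM in controls and at 1.52, 4.27 and 5.44 CPM in knockouts. Control 3 and knockout 1 were low in their groups, and the groups overlapped. The 14 counts of control 3 have an exact 95% Poisson interval of 7.65 to 23.5, which covers counting error only. The log2 fold change was 0.59 ± 0.64 (95% interval -0.94 to 2.11, adjusted p = 0.531), and a doubling lies inside that interval. It was 0.17 without control 3, 0.22 without knockout 3 and 0.95 without knockout 1, called in none of these fits.

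Arnt (chr3:95238310-95301162, plus strand), the constitutive beta subunit, was among the members that varied least, from 59.4 to 71.9 CPM in controls and from 63.8 to 71.4 CPM in knockouts. Its log2 fold change was 0.04 ± 0.13 (95% interval -0.26 to 0.34, adjusted p = 0.833), and the sign turned when control 3 (-0.03) or knockout 2 (-0.004) was left out.

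The log2 ratio of Hif1a to Epas1 per kilobase was narrow in controls, from -0.29 to -0.11, and in knockouts it was -0.28, -0.42 and -1.61. Knockouts 1 and 2 were at or near the control range and knockout 3 was far below it. The difference was -0.58 ± 0.42 SE (exact permutation test, two-sided, p = 0.2, and 0.4 adjusted, as for all 4 ratios), and it was -0.16 without knockout 3, so most of it rests on that library. Epas1 made up 74.7% of alpha subunit RNA in knockout 3 and 51.8% to 56.8% in the other 5 libraries. Hif3a to Hif1a differed by 0.78 ± 0.89 (p = 0.4, same exact test), by 0.19 without knockout 3 and by 1.45 without knockout 1. The sum of the 3 prolyl hydroxylases relative to the sum of Hif1a and Epas1 differed by -0.28 ± 0.23 (p = 0.3, same exact test), with 0.762, 0.905 and 1.09 in controls and 0.941, 0.630 and 0.703 in knockouts on the linear scale. Without knockout 1 this difference was -0.45, without knockout 2 it was -0.16 and without control 3 it was -0.15. The total of the enzymes' RNA relative to that of their substrates therefore overlapped between genotypes.

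**Figure D3:**
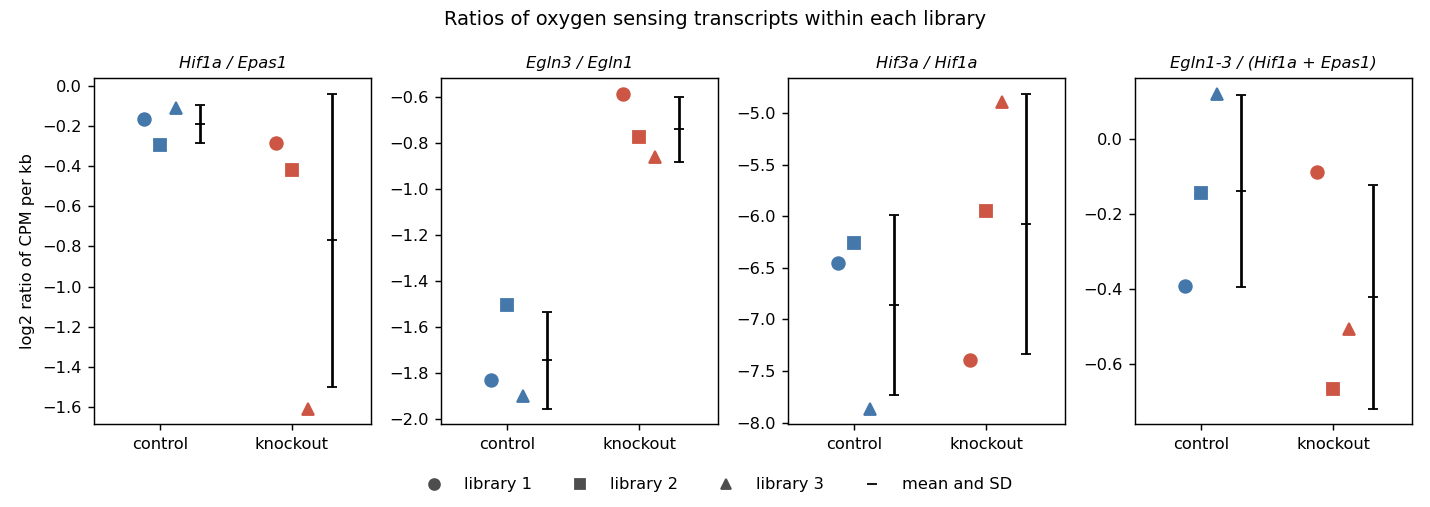
Log2 ratios of CPM per kilobase within each library, with controls in blue, knockouts in red, the symbol giving the library number and the black bar the mean and SD of 3 libraries (the axes differ between panels). The Egln3 to Egln1 ratio is higher in all 3 knockouts, while the other 3 ratios overlap and knockout 3 lies far below the rest for Hif1a to Epas1.

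Of the genes that limit HIF downstream of the prolyl hydroxylases, Cited2 had the smallest p-value of all members. It lies at chr10:17443034-17445479 on the plus strand, in 2 exons. Controls stood at 111.5, 91.6 and 104.0 CPM and knockouts at 82.2, 59.7 and 70.5 CPM. All 3 knockouts were below all 3 controls, and the closest pair was control 2 and knockout 1. Its log2 fold change was -0.53 ± 0.16 (95% interval -0.92 to -0.15), with adjusted p = 0.0619 by edgeR. Without knockout 1 it was -0.66 and was called (adjusted p = 0.0210, where 34.4% of all genes were called). Without control 2 it was -0.62 (adjusted p = 0.127, where 0% of all genes were called).

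Vhl (chr6:113573953-113581627, plus strand, 3 exons) was measured at 34.6, 34.0 and 29.9 CPM in controls and at 42.5, 39.8 and 37.8 CPM in knockouts. Every knockout was above every control, by a small margin. This gave a log2 fold change of 0.29 ± 0.13 (95% interval -0.01 to 0.59, adjusted p = 0.142), 0.30 without control 2 and 0.23 without knockout 1. With library size alone as the scaling Vhl and Egln3 were called (adjusted p = 0.0308 and 0.0416), at 0.56 and 0.78 on a scale where the median of all genes had moved up by 0.27, and 24% of all genes were called. Hif1an (chr19:44637340-44650764, plus strand), which encodes factor inhibiting HIF, ranged from 75.7 to 91.8 CPM in controls and from 74.2 to 93.1 CPM in knockouts. Its log2 fold change of -0.02 ± 0.14 (adjusted p = 0.943) took either sign, from -0.11 to 0.06, as single libraries were left out.

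**Figure D4:**
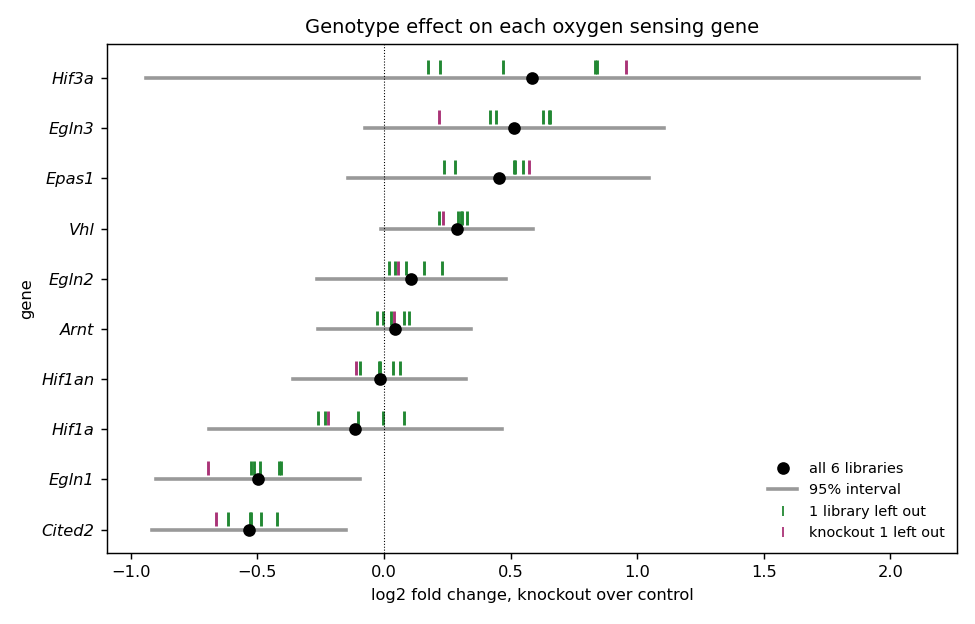
Log2 fold change of each oxygen sensing gene, knockout over control, with black points for all 6 libraries, gray lines for the 95% interval of edgeR's quasi-likelihood fit and ticks for fits that leave out 1 library (purple: without knockout 1). The intervals of Egln1 (-0.90 to -0.09) and Cited2 (-0.92 to -0.15) stay below 0 before adjustment for 15171 genes, and both estimates move farther from 0 without knockout 1.

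The members also differed in how much of the machinery's RNA they made up. Per kilobase of their longest coding transcript, mean levels in controls ran from Cited2 (52.0 CPM per kb), Epas1 (43.9), Hif1a (38.3), Egln2 (36.3) and Egln1 (28.7) to Arnt (15.1), Hif1an (13.7), Vhl (11.8), Egln3 (8.66) and Hif3a (0.386). The 4 leading genes overlapped with their neighbors in this order, and so did Arnt, Hif1an and Vhl. Egln1, Egln3 and Hif3a each stood clear of the genes next to them. The order rests on the transcript lengths used, and without that division Egln1 was above Egln2 in controls. In knockouts Epas1 led at 60.0 CPM per kb and stood clear of Egln2 (39.1), Cited2 (36.0) and Hif1a (35.4), which overlapped, while Egln1 (20.4) kept the fifth place and Hif3a (0.585) the last. Egln3 (12.4) was ninth in both groups, and in knockouts it overlapped with Hif1an (13.5) above it.

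Spread between replicates differed widely among members. In controls the coefficient of variation ran from 2.34% for Egln1 to 57.2% for Hif3a, with 18.9% for Hif1a and 21.6% for Epas1. Counting error alone would give 1.58% for Epas1 and 17.5% for Hif3a. In knockouts it was lowest for Arnt (5.64%) and Vhl (5.83%), and for Egln1 it was 21.1%.

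Other tested genes whose log2 CPM followed a member most closely over the 6 libraries were sought among all genes, as a description with no test. Hif1a was followed most closely by Fv1, Sugt1 and Kcnj8 (Pearson r 0.986, 0.984 and 0.984), Epas1 by Mcc, Hinfp and S1pr1 (0.992, 0.992 and 0.990), Hif3a by Nfib, Fchsd2 and Tsc22d3 (0.981, 0.978 and 0.977) and Egln3 by Ipo4, St6galnac3 and Rbm45 (0.988, 0.987 and 0.980). The 6 points share genotype and depth, and of the 15171 genes tested 183 had r over 0.9 with Epas1, 83 with Hif1a, 66 with Hif3a and 26 with Egln3.

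Around the members, 62 other genes of the pathway were tested in 6 lists, and 12 were called, 8 higher and 4 lower in knockouts. This is 19.4% of them (12.9% higher and 6.45% lower), near the 17.2% (10.6% and 6.64%) of all tested genes. All 4 tested partners of Vhl in its ligase had negative log2 fold changes (median -0.22) and 0 were called by edgeR. The one with the smallest p was Tceb1, the elongin C subunit (-0.35 ± 0.13, adjusted p = 0.0922). Of 11 other partners and modulators, 1 fell and 0 rose (median 0.11). It was Siah2, a ligase that targets prolyl hydroxylases for degradation, at 20.9 to 25.4 CPM in controls and 13.3 to 16.2 CPM in knockouts (-0.70 ± 0.17, adjusted p = 0.0378).

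Of 17 glycolytic HIF targets, 2 rose and 0 fell, and the median was -0.06. The 11.8% called compares with 17.2% of all tested genes (10.6% higher). The neuronal enolase Eno2 rose from 2.72 to 13.0 CPM (2.26 ± 0.35, adjusted p = 0.0277) and Pfkfb4, an enzyme that sets the flux through phosphofructokinase, from 12.4 to 21.1 CPM (0.77 ± 0.21, adjusted p = 0.0490). The remaining 15 did not pass and had values of both signs, such as the glucose transporters Slc2a1 (-0.20) and Slc2a3 (1.61, adjusted p = 0.0537), the hexokinase Hk2 (1.31, adjusted p = 0.0794) and Pgk1 (-0.62), named here after their values were seen. Over the list, 8 of 17 were positive. Eno1, with at most 6 counts per library and near-identical copies in the genome, was not tested.

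Of 22 other HIF targets, 6 rose and 2 fell (median 0.12), or 27.3% and 9.09%, beside 10.6% and 6.64% of all tested genes. The list was chosen with earlier results of these data known, so these shares cannot show an excess among HIF targets. Among the largest changes were those of the collagen cross-linking enzyme Lox (3.32 ± 0.65), the cell cycle inhibitor Cdkn1a (3.12 ± 0.38) and the vasoconstrictor peptide gene Edn1 (2.70 ± 0.40), with adjusted p-values of 0.0271 to 0.0308. Lox is also a product of activated fibroblasts, and macrophage and fibroblast marker sums were higher in the same libraries. Whether cell makeup bears on any gene of this list was not tested. Beyond the rule for naming genes, and chosen after their values were seen, Cxcr4 (1.81) and Ddit4 (1.22) also rose, while the carbonic anhydrase Car9 (-1.79, from 15.3 to 4.42 CPM) and the Myc antagonist Mxi1 (-0.56) fell. The angiogenic factor Vegfa (-0.62, adjusted p = 0.282) and Bnip3 (-0.77, adjusted p = 0.0871), named on the same basis, did not pass. Epo, with at most 5 counts per library, was not tested.

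**Figure D5:**
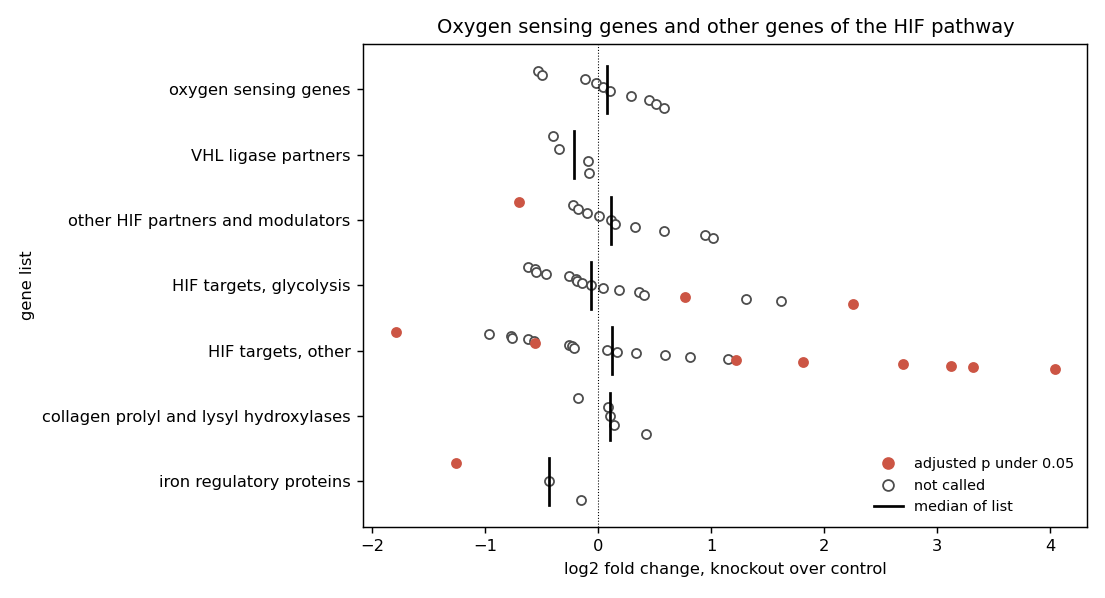
Log2 fold change, knockout over control, of the 10 oxygen sensing genes and of 62 other tested genes of the pathway in 6 lists, with filled points for an adjusted p under 0.05, open points for genes not called and a bar at the median of each list. None of the 10 oxygen sensing genes is filled and they stay between -0.53 and 0.59, whereas called genes of the lists lie on both sides, such as Car9 at -1.79 and Lox at 3.32.

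Collagen prolyl and lysyl hydroxylases need the same cofactors as the oxygen sensors. Of 5 tested, 0 were called by edgeR (median 0.11), and the smallest p was that of Plod3 (0.42 ± 0.14, adjusted p = 0.0795). The iron regulatory proteins bind RNA when iron is low, and that encoded by Aco1 doubles as cytosolic aconitase and is known to repress the translation of Epas1. Of 3 genes of this list, Aco1 fell from 458.1 ± 69.6 to 191.1 ± 73.9 CPM (SD, n = 3 in each group), a log2 fold change of -1.26 ± 0.30 (adjusted p = 0.0384), and the others were not called (list median -0.43). Its controls ran from 393.5 to 531.8 CPM and its knockouts from 131.0 to 273.6 CPM, without overlap, beside the lower proximal tubule markers of the same libraries.

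These list calls depend on single libraries: 0 of the 62 genes were called by edgeR without any 1 of the controls (0% of all genes) or without knockout 3 (0.013%), 1 without knockout 2 (0.474%) and 25 without knockout 1 (34.4%). Across all genes the corresponding calls went from 2612 to 0 without any 1 of the controls, where 4270 to 4823 genes had an unadjusted p under 0.05, and to 5332 without knockout 1. In the main edgeR fit the smallest adjusted p of all 15171 genes was 0.0271, so every call lay between that value and 0.05.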

How the data were processed

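The deposited files hold unnormalized counts, in 1 table per genotype with 3 libraries each. Per the submitters' processing notes and the study's methods, base calling used CASAVA 1.8.2, and the authors trimmed reads with Trimmomatic, aligned them to mm9 with TopHat2 2.0.11, kept reads that mapped to 1 place and counted with HTSeq. The annotation and strand setting are not given in the sources used here, so counts of overlapping genes are uncertain and genes with near-identical copies are lowered. Groups and replicate numbers came from the sample titles. Nothing pairs the libraries by number. Chi-square values between replicates were 52.9 to 125.5 per degree of freedom, so each library counted as 1 replicate.

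Counts were fitted with edgeR 4.0.16 in R 4.3.3 (TMM, filterByExpr with a minimum count of 10 and a total of 15, glmQLFit in its default legacy form, no covariate), with Benjamini-Hochberg adjustment over 15171 genes and calls at 0.05. The SE is the log2 fold change over the square root of F. CPM are TMM-normalized, and log2 CPM used a prior count of 2. Levels and ratios between genes were divided by the longest protein-coding transcript in GENCODE M1 on NCBIM37, which is mm9 and gave all gene coordinates. Ratios were tested by exact permutation. DESeq2 1.42.0, limma 3.58.1, other scalings and filters, a replicate block and leaving out each library were alternatives. The fit was tested on simulated counts.

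The members, the pathway lists and the marker lists were chosen with earlier results of these data known. Genes named are the members, Tfrc, the called genes of each pathway list (at most 4, by size, or the smallest p where none was called, with 1 such gene not reported here) and the 3 genes most like Hif1a, Epas1, Hif3a and Egln3. A few other list and marker genes were named after their values were seen. With 3 libraries per group, whose origin from separate animals rests on the description as biological replicates, the precision is set by the spread between libraries rather than by depth.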

Additional observations from a re-analysis of the deposited data

How the results depend on the processing

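Over 15 alternatives the log2 fold changes of Epas1, Hif3a, Egln1, Egln2, Egln3, Vhl and Cited2 kept their sign. Hif1an turned to 0.060 with upper quartile scaling and to 0.25 with library size alone, which also turned Hif1a to 0.15. As single libraries were left out, Hif1a ranged from -0.26 to 0.080, Arnt from -0.029 to 0.10 and Hif1an from -0.11 to 0.062. Of the members, 0 were called by edgeR, 2 with library size alone (Egln3 and Vhl), 2 by DESeq2 (Egln1 and Cited2), and 0 to 2 as single libraries were left out, the 2 being Egln1 and Cited2 without knockout 1. Calls over all genes went from 2612 to 4882 by DESeq2 and from 0 to 5332 with single libraries left out, and those in the pathway lists from 12 to between 0 and 25. With the split of calls at 1604 higher and 1008 lower, library size alone gave 2985 and 662.

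A replicate block called 0 genes of all, 0 members and 0 of the list genes. Its unadjusted p was under 0.05 for 5432 genes. Replicate numbers only name the libraries: deviations from the group means correlated at -0.13, 0.01 and 0.21 within numbers 1, 2 and 3. In the paired sign-flip test of the ratios the smallest possible p is 0.25, reached by Egln3 to Egln1 and by Hif1a to Epas1. Adding 1 count to each gene moved the 4 ratios to -0.58, 1.00, 0.76 and -0.28. Why the calls change when a library is left out was not tested.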
